A study of Mus musculus with 40 samples.

Results

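The proteasome is the barrel-shaped protease that degrades ubiquitin-tagged proteins, and its subunits are encoded by the Psm genes. All 47 genes whose symbol is Psma, Psmb, Psmc, Psmd, Psme or Psmg followed by a number were taken from the 24056 genes of the table. They were described in all 24 RNA-seq libraries. By role they were 8 alpha and 7 beta genes of the 20S core, 4 immune or tissue-specific beta genes, 6 ATPases and 3 other genes of the 19S base, and 8 genes of the 19S lid. The remaining genes were 3 Psmd genes outside the finished 19S particle, 4 activators and 4 core assembly chaperones. Psmf1, Psmc3ip and Psme2b did not match the symbol rule and were not counted.

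The libraries came from mouse oocytes and embryos in which the RNA-binding protein TDP-43, encoded by Tardbp, had been removed from the oocyte. Control females were Tdp43 flox/flox, and Tdp43 oKO females were Tdp43 flox/flox;Zp3-Cre, whose Cre is driven by the oocyte-specific Zp3 promoter. All females shared a C57BL/6J and ICR hybrid background. Both kinds of females were mated with ICR males, so the embryos of both groups received a wild-type paternal allele. Fully grown oocytes (FGO) were collected 48 h after PMSG. Mature oocytes (MII) were collected 13 h after HCG, late 1-cell embryos (1C) at 30 h, and embryos in the early (E2C) and late (L2C) part of the 2-cell stage at 36 and 48 h. A further pair of groups was injected at the 1-cell stage with mCherry-Trim21 mRNA and either an antibody against TDP-43 or normal IgG, and was cultured to L2C. Each of the 12 groups had 2 libraries of 20 oocytes or embryos. The sources used here do not say that these came from separate animals, so p-values measure only the spread between libraries.

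The libraries injected with antibody are titled KD and those injected with IgG are titled NC. The genotype tags of these 4 libraries name the opposite, so they are called libraries titled KD and libraries titled NC throughout. Tardbp was lower in all Tdp43 oKO libraries than in the control libraries of the same stage. Its level was 10.1 and 7.62 FPKM in control FGO against 0.884 and 1.05 FPKM in Tdp43 oKO FGO, and 6.14 and 7.52 against 1.95 and 2.01 FPKM at L2C. In the libraries titled KD it was 3.65 and 3.85 FPKM, against 5.29 and 5.95 FPKM in those titled NC, but the injection removes protein, so this level does not check the titles. The deposited FPKM values summed to 124265 and 126713 per library in Tdp43 oKO L2C embryos and to between 209102 and 432671 in the other 22 libraries. Sums over marker lists are given with the lower library first. The summed level of 6 oocyte marker genes was 471 and 635 FPKM in control L2C embryos and 1829 and 2076 FPKM in Tdp43 oKO L2C embryos. Most of this sum was Oosp1, at 558 and 390 FPKM in control L2C and 1712 and 1901 FPKM in Tdp43 oKO L2C. Zp2, Gdf9 and Bmp15 were also higher in Tdp43 oKO L2C, and Zp1 overlapped. Zp3 was lower there, at 15.8 and 15.5 FPKM against 18.6 and 22.7 FPKM in control L2C. For 4 marker genes of E2C embryos the sum was 27.3 and 27.9 FPKM in control L2C and 187 and 208 FPKM in Tdp43 oKO L2C. In the mm9 annotation 8 members (Psma4, Psmb7, Psmb8, Psmb9, Psmc3, Psmd1, Psmd13 and Psme1) overlap another protein-coding gene, whose reads cannot be told apart by strand. No such neighbour with a row in the table was above 5.33 FPKM in any library. Read depth is unknown because FPKM was deposited. FPKM is scaled to the reads of each library, so its sum measures neither the number of cells nor the RNA per cell.

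The 20S core is a stack of rings. The outer rings are built of alpha subunits, which gate the channel, and the inner rings of beta subunits, of which Psmb5, Psmb6 and Psmb7 encode the catalytic ones. The 19S particle caps the core: its base holds the Psmc ATPases that unfold substrates, and its lid holds the deubiquitinase Psmd14 and scaffold subunits. In immune cells Psmb8, Psmb9 and Psmb10 replace the catalytic subunits, Psma8 and Psmb11 serve the testis and the thymus, and Psme1 and Psme2 form the interferon-induced 11S activator. In mammals the transcription factor Nrf1, encoded by Nfe2l1, raises most subunit genes together when proteasome activity is short. Oocytes and early embryos depend on protein degradation for meiotic exit and for clearing maternal proteins.

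Sequences upstream of the members are shown first because members moved together at L2C in the values described further on. RefSeq promoters of build GRCm38.p6 were given for 39 of the 47 genes, and the 250 bases before each start were searched on both strands for 3 motifs. The antioxidant response core TGACNNNGC, which Nrf1 and Nrf2 bind, was in 5 of 42 member promoters (11.9%) and in 10.2% of all 32851 promoters. CCAAT, the NF-Y box, was in 14 of 42 (33.3%) against 33.8% of all. CCGGAAG, a core bound by ETS factors, was in 13 of 42 (31.0%) against 6.91% of all. All promoters include those of genes not expressed in these libraries, and the share among expressed genes was not counted. No member promoter had overlapping matches of different motifs. The first pair printed here, Psmc1 and Psmd12, holds CCGGAAG. Psmc1 also holds CCAAT, and Psmd12 also holds TGACNNNGC. The next, Psmb5, holds only TGACNNNGC, and Psmb4, the gene with the largest fall at L2C, holds none of the 3. Capitals mark motif matches on either strand.
Psmc1 (chr12:100109952-100110201, plus strand): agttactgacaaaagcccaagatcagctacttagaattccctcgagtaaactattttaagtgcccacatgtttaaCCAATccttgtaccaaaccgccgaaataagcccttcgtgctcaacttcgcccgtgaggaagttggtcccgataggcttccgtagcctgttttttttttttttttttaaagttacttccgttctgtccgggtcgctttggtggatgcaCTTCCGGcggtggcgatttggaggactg
Psmd12 (chr11:107479278-107479527, plus strand): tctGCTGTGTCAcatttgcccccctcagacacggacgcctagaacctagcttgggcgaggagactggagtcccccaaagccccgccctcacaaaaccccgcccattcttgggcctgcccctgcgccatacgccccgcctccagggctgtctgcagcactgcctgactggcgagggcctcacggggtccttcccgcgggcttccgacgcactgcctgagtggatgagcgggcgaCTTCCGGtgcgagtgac
Psmb5 (chr14:54617996-54618245, minus strand): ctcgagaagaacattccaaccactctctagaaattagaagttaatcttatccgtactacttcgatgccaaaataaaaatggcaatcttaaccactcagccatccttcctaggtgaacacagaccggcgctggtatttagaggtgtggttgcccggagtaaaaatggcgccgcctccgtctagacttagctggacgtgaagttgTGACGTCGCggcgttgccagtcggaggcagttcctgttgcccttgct
Psmb4 (chr3:94886959-94887208, minus strand): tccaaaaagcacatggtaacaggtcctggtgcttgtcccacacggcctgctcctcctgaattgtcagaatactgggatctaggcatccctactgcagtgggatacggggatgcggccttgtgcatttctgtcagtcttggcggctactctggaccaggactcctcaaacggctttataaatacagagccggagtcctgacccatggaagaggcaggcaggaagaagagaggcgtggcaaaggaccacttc

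The CCGGAAG matches began 28 bases before the start in Psmc1 and 17 bases before it in Psmd12. The TGACNNNGC match of Psmb5 began 47 bases before its start. A CCGGAAG match was present for 9 of the 28 genes with a promoter entry that were lower in Tdp43 oKO at L2C, and for 3 of the 8 tested genes with an entry that were not. These are matches of letters and not sites of binding.

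In fully grown control oocytes the levels of the members ranged widely. Psma2, an alpha subunit, stood at 1418 and 1614 FPKM, and had the highest mean level of the 47 genes over the 24 libraries (959 FPKM). FPKM is scaled to transcript length, so levels can be compared between genes. Psmb2 was the highest beta gene on average over the libraries (475 FPKM), Psmc6 the highest ATPase (92.4 FPKM) and Psmd14 the highest lid gene (46.8 FPKM). The highest of the other groups were Psmd4, the ubiquitin receptor of the base (43.2 FPKM), Psmd10, an assembly chaperone of the base (38.6 FPKM), Psmg1, a chaperone of the alpha ring (36.6 FPKM), and Psme4, which encodes the activator PA200 (23.9 FPKM). The 14 constitutive core genes together made up 1.38% and 1.36% of all FPKM in control FGO. The 17 genes of the 19S base and lid made up 0.273% and 0.244%.

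**Figure D1:**
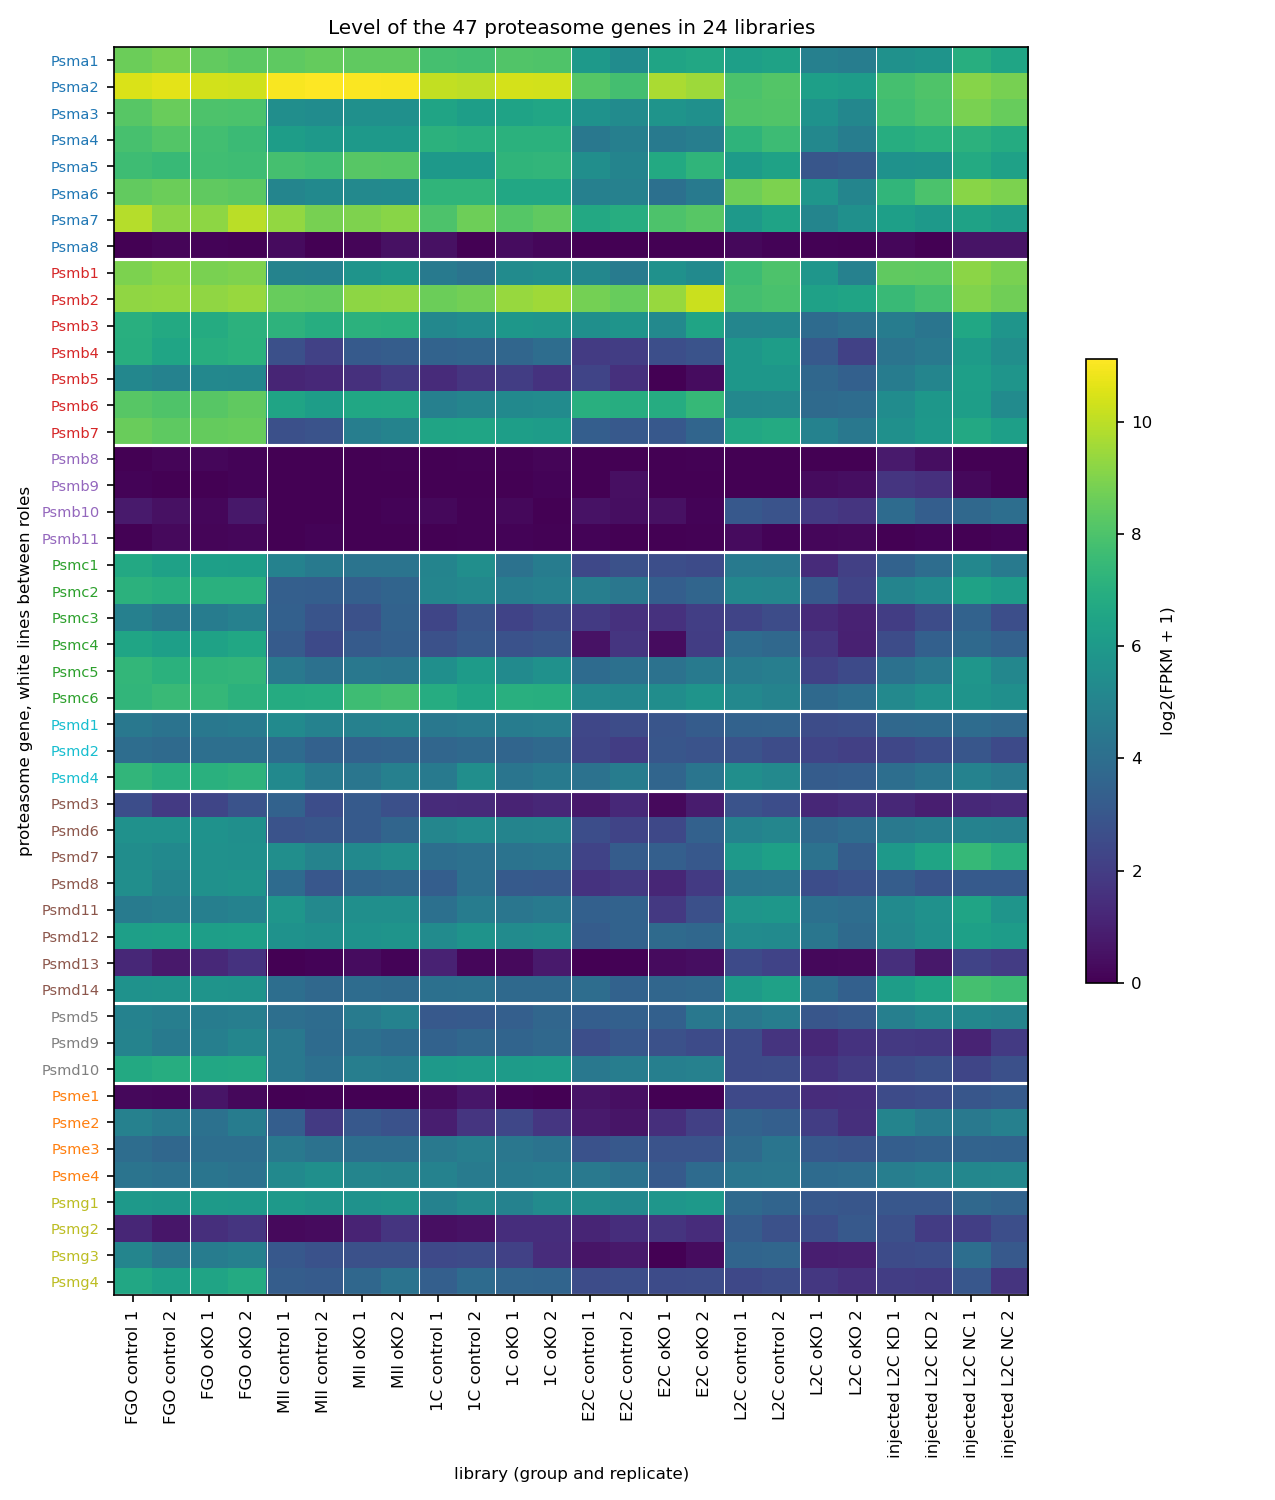
Level of each of the 47 genes (rows, coloured by role) in the 24 libraries (columns), as log2(FPKM + 1). Psma2 is bright in every library before L2C, whereas Psma8, Psmb8 and Psmb11 stay near 0 throughout.

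Immune and tissue-specific members were nearly absent. Psma8, Psmb8 and Psmb11 stayed under 1 FPKM in all 24 libraries, with highest values of 0.523, 0.768 and 0.241 FPKM. The catalytic gene Psmb5 was at 34.2 and 29.5 FPKM in control FGO, while its immune counterpart Psmb8 was at 0 and 0.0963 FPKM. Psmb6 was at 302 and 265 FPKM, while its counterpart Psmb9 was at 0.0864 and 0 FPKM. Psmb7 was at 377 and 325 FPKM, while its counterpart Psmb10 was at 0.724 and 0.426 FPKM. Psmb10 stayed under 1 FPKM through E2C and then reached 7.36 and 6.15 FPKM in control L2C embryos. At that stage Psmb7 was at 99.99 and 109 FPKM, so the immune gene remained far below the constitutive one. Psme1 behaved alike: it was under 1 FPKM in every library before L2C and at 4.49 and 4.55 FPKM in control L2C. Psme2, which encodes its partner subunit, was already at 28.7 and 22.5 FPKM in control FGO. Psme2b, a paralog of Psme2, is listed at no more than 0.685 FPKM, and reads of the 2 genes may be shared.

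Genes were tested with limma on log2(FPKM + 1), and a gene is called changed when the Benjamini-Hochberg adjusted p is at most 0.05 and the change at least 2-fold. Fold changes on this scale understate the change of genes with low FPKM. A gene needed a mean of at least 1 FPKM over the libraries compared to be tested. Values after ± are 1 SE of the log2 fold change, and ratios of mean FPKM are given as folds.

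During maturation from FGO to MII in controls, the members took separate paths. Of 39 members tested, 21 fell and 1 rose, where 27.9% of the 8619 genes tested fell and 7.99% rose. The median log2 fold change was -1.78 over the members and -0.07 over all genes. In the beta ring 5 of 7 genes fell, with a median of -3.82. In the alpha ring 3 of 7 tested genes fell, with a median of -0.46. Of the ATPases, 5 of 6 fell, and of the lid genes 3 of 7.

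The deepest fall was that of Psmb7, which encodes the trypsin-like catalytic subunit. It went from 377 and 325 FPKM in FGO to 5.48 and 6.25 FPKM in MII, a 59.9-fold drop (log2 fold change -5.68 ± 0.16, adjusted p = 5.85e-15 by limma). Psmb4, a structural beta subunit, fell from 123 and 91.5 FPKM to 5.59 and 3.49 FPKM (-4.30 ± 0.23). Psmb5, the chymotrypsin-like subunit, fell from 34.2 and 29.5 FPKM to 1.24 and 1.40 FPKM (-3.82 ± 0.20). Their FGO and MII libraries lay far apart. Psmb1 fell 17.5-fold, the ATPases Psmc2 and Psmc4 fell 14.4-fold and 13.3-fold, Psma6 fell 10.6-fold and Psma3 fell 8.01-fold. The chaperone Psmg4 fell 10.6-fold, the ATPase Psmc5 7.86-fold, the lid gene Psmd6 7.28-fold and Psmd10 6.18-fold.

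Other genes of the same rings did not pass in that comparison. Psma2 was at 2077 and 2214 FPKM in MII (log2 fold change 0.50), Psma5 at 228 and 206 FPKM, Psmb3 at 146 and 121 FPKM and Psmb2 at 373 and 361 FPKM. The 1 member that rose was Psme4, from 18.7 and 16.7 FPKM to 37.9 and 44.8 FPKM (1.18). The spread within the core widened. Psma2 exceeded the lowest core gene, Psmb5, 41.5-fold and 54.7-fold in the control FGO libraries and 1681-fold and 1581-fold in the control MII libraries. The SD of log2(FPKM + 1) over the 14 core genes was 1.32 and 1.41 in FGO and 2.77 and 2.76 in MII. Smart-seq2 primes from poly(A) tails, so a shorter tail and less RNA cannot be told apart in these libraries.

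From MII to 1C, before the main wave of transcription, 8 members rose and 8 fell of 39 tested, where 14.4% of 8234 genes rose and 11.1% fell. Psmb7 rose again, from 5.48 and 6.25 FPKM to 88.3 and 91.3 FPKM (3.73 ± 0.17, a 15.3-fold difference). Psmd6 rose 5.59-fold, Psma6 4.38-fold, Psmc2 3.68-fold, Psmd10 3.56-fold and Psmc5 3.01-fold. Psmb4 (1.15) and Psma4 (a 2.01-fold difference) were the other members that rose. The FGO to MII and MII to 1C comparisons share the MII libraries, so their values stand side by side only. Nek6, which overlaps Psmb7 on the opposite strand, was at or under 0.0393 FPKM in all 24 libraries. Psmb5 did not pass, at 1.60 and 2.25 FPKM in 1C, and Psmb4, at 10.7 and 11.4 FPKM, stayed far under its FGO level. Psma5 fell from 228 and 206 FPKM to 64.1 and 60.8 FPKM (-1.78), Psma2 fell to 1083 and 1017 FPKM (-1.03), Psmd11 fell by 1.16 on the log2 scale, and Psmb3, Psmd3, Psmb6, Psme2 and Psmd7 fell between 2.34-fold and 5.05-fold.

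From 1C to E2C, 20 of 39 members fell and 1 rose, where 37.3% of 8023 genes fell and 8.28% rose. Psme2 and Psmg3 were tested only through their 1C level, and 19 of the other 37 fell. The median was -1.35 over the members and -0.72 over all genes. With median-ratio scaling, which shifts the median of all genes by 0.60, 13 members fell and 4 rose. Over all 8023 genes 1254 fell and 1341 rose with that scaling. Psmb7 fell 10.8-fold, Psmd6 8.23-fold, Psmc1 7.44-fold, Psma4 5.73-fold and Psma6 5.39-fold. Psma2 fell 4.17-fold, from 1083 and 1017 FPKM to 286 and 218 FPKM. Psmb6, the caspase-like catalytic subunit, was the member that rose, from 27.4 and 32.1 FPKM to 129 and 122 FPKM (2.04 ± 0.24). At E2C the 14 core genes made up 0.360% and 0.361% of all FPKM in controls, the lowest share of the 5 control stages.

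From E2C to L2C, when the major wave of zygotic genome activation takes place, 25 of 43 members rose and 3 fell in controls, where 39.7% of 8183 genes rose and 22.9% fell. The median was 1.69 over the members and 0.53 over all genes. All 8 lid genes rose, with a median of 2.42, and so did 4 of 7 beta genes and 3 of 7 tested alpha genes. Psmb4 rose from 2.83 and 3.05 FPKM to 58.6 and 71.4 FPKM (4.06 ± 0.33). Psmb5 rose from 3.91 and 1.93 FPKM to 58.5 and 58.0 FPKM (3.96 ± 0.29). Psma6 rose from 27.9 and 28.6 FPKM to 409 and 480 FPKM (3.93 ± 0.25) and became the highest core gene. Psmb7 rose 12.6-fold, the lid scaffold Psmd7 11.6-fold, Psmb1 7.83-fold, the chaperone Psmg3 18-fold and Psmc4 9.81-fold. Of the 25 that rose, Psmb10, Psme1, Psme2, Psmg3 and the lid gene Psmd13 had a mean under 1 FPKM at E2C and were tested only through L2C, so a rise was a condition of their being tested. Of the 38 members at 1 FPKM or more in both groups, 20 rose. The 3 members that fell were Psmd10 (-1.99), Psmb6 (-1.77) and Psmg1 (-1.68).

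Many of the members that fell at maturation rose at L2C. Of the 21 members that fell from FGO to MII, 14 rose from E2C to L2C, namely Psma3, Psma4, Psma6, Psmb1, Psmb4, Psmb5, Psmb7, Psmc1, Psmc4, Psmd6, Psmd8, Psmd14, Psme2 and Psmg3. Psme2 and Psmg3 were tested in the later step only through their L2C level. Of all 8183 genes tested from E2C to L2C 39.7% rose, and the share among all genes that fell at maturation was not counted. Of the 17 tested in both that neither fell nor rose at maturation, 7 rose from E2C to L2C. Across the 39 members tested in both, Spearman's rho between the 2 sets of log2 fold changes was -0.44 (Pearson's r = -0.44), and across the 6893 genes tested in both it was -0.11 (r = -0.12). The 2 transitions share no library, but genes are not independent replicates and no p is given. By L2C the core genes lay closer together, with the highest exceeding the lowest 12.4-fold and 14-fold and an SD of log2(FPKM + 1) of 1.14 and 1.17.

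**Figure D2:**
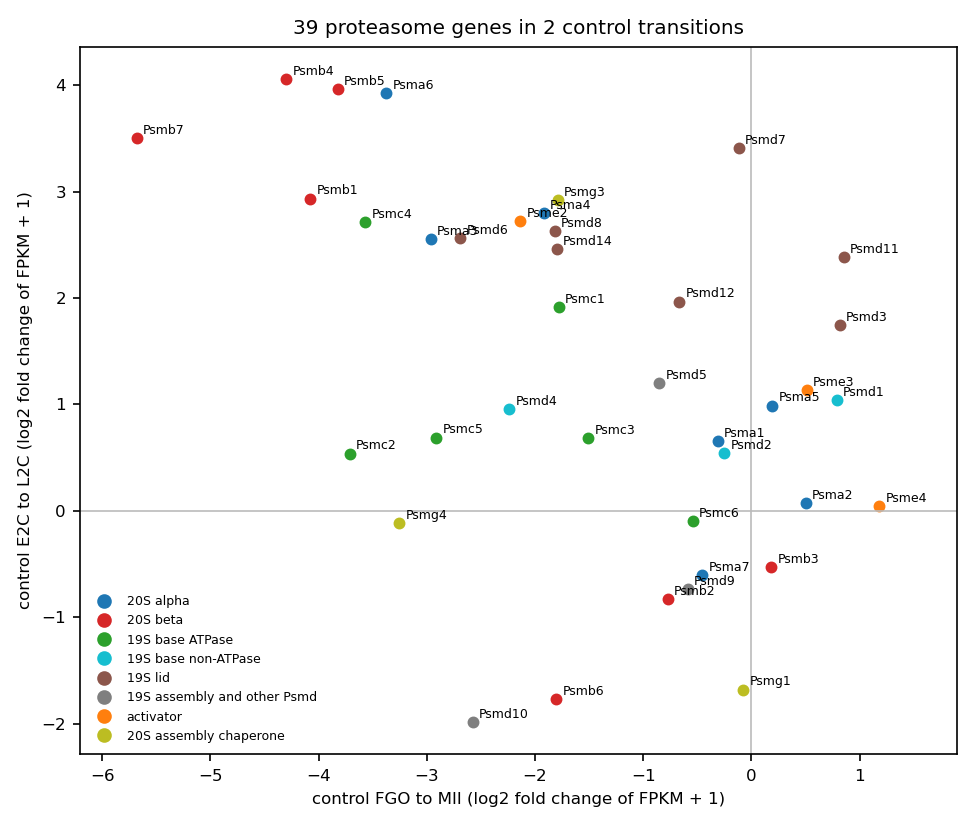
Log2 fold change of FPKM + 1 from FGO to MII (x) and from E2C to L2C (y) in control libraries for the 39 members tested in both, coloured by role. Psmb7, Psmb4, Psmb5 and Psma6 lie at the upper left, while Psmb6 and Psmd10 fell in both.

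At the FGO stage none of 41 members was called between Tdp43 oKO and control, where 1.70% of 8919 genes were higher and 1.31% lower, so this count lies near the background, and the median was 0.05 against 0.04 over all genes. The largest differences were those of Psmg2, a chaperone of the alpha ring (0.67 ± 0.23, adjusted p = 0.0684 by limma), and Psmd13, a lid gene (0.45 ± 0.24, adjusted p = 0.259). Psmg2 was at 1.83 and 2.27 FPKM in Tdp43 oKO and at 1.28 and 0.595 FPKM in control, and it passed with a pseudocount of 0.1 (1.13). Its mean in control was 0.94 FPKM, so it reached the mean of 1 FPKM needed for the test through the Tdp43 oKO libraries. A difference was thus a condition of its being tested.

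At MII 1 of 39 members was higher in Tdp43 oKO and none lower, where 4.24% of 7906 genes were higher and 1.33% lower. Psmb7 was at 26.4 and 30.5 FPKM in Tdp43 oKO and at 5.48 and 6.25 FPKM in control (a 4.85-fold difference, adjusted p = 1.44e-07 by limma). Its level in Tdp43 oKO FGO was 361 and 365 FPKM. With the control MII library 1 left out 4 members were called, and with control library 2 or Tdp43 oKO library 1 left out 2 were.

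At 1C 2 of 40 members were higher and none lower, where 1.73% of 8211 genes were higher and 2.42% lower. Psma5 was at 151 and 159 FPKM in Tdp43 oKO and at 64.1 and 60.8 FPKM in control (1.30 ± 0.15, adjusted p = 9.31e-06). Psmb1 was at 40.6 and 43.8 FPKM against 22.5 and 18.5 FPKM (1.01 ± 0.20, adjusted p = 0.0022). Leaving out either Tdp43 oKO library left 1 call, and leaving out control library 1 gave 4, of which 2 were lower. The 8 blood and immune marker genes summed to 17.9 and 168 FPKM in control 1C and to 1.39 and 3.54 FPKM in Tdp43 oKO 1C, of which the neutrophil gene S100a8 made up 16.7 and 161 FPKM in control, and their part was not tested. Shfm1, which encodes the small lid subunit Sem1, was also higher, with means of 282 and 74.2 FPKM (1.91).

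At E2C 3 of 38 members tested were higher and 3 lower, where 3.05% of 6657 genes were higher and 7.14% lower. Both counts are small, and the lower one lies near the background. The median was 0.23 over the members and -0.15 over all genes. Psma5 was at 106 and 154 FPKM in Tdp43 oKO and at 44.3 and 31.5 FPKM in control (1.75 ± 0.24, adjusted p = 7.76e-05). Psma2 was at 831 and 722 FPKM against 286 and 218 FPKM (1.63 ± 0.20). Psmb2 was at 679 and 1209 FPKM against 444 and 372 FPKM (1.15 ± 0.24). At 1C these levels had been 1352 and 1311 FPKM for Psma2 and 151 and 159 FPKM for Psma5 in Tdp43 oKO.

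Psmb5, also a core beta gene, was among the lower ones. It was at 0.0127 and 0.285 FPKM in Tdp43 oKO and at 3.91 and 1.93 FPKM in control (-1.73 ± 0.34, adjusted p = 0.00192). It reached the mean of 1 FPKM needed for the test through the control libraries, so a difference was a condition of its being tested. The lid gene Psmd11 was at 2.60 and 5.56 FPKM against 9.57 and 10.3 FPKM (-1.17 ± 0.37, adjusted p = 0.0451). Psmc2 was at 8.86 and 11.3 FPKM against 25.8 and 20.1 FPKM (-1.11 ± 0.29, adjusted p = 0.0162). With median-ratio scaling 4 members were higher and 1 lower, without control library 2 there were 2 higher and 1 lower, and without control library 1 there were 4 higher and none lower, so that all 3 lower calls were lost. Over all 6657 genes 303 were higher and 453 lower with median-ratio scaling. The 4 marker genes of E2C embryos summed to 1056 and 1199 FPKM in control E2C and to 218 and 682 FPKM in Tdp43 oKO E2C, and their part was not tested. The core genes took 0.689% and 0.796% of all FPKM in Tdp43 oKO, against 0.360% and 0.361% in control. The 19S genes took 0.0438% and 0.0505% against 0.0437% and 0.0532%. Psma2 and Psmb2 together made up 66.5% and 66.7% of the core sum in Tdp43 oKO and 57.9% and 54.1% in control. Without them the core genes took 0.231% and 0.265% in Tdp43 oKO against 0.152% and 0.166% in control, and 3 of the 14 core genes were called higher and 1 lower.

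**Figure D3:**
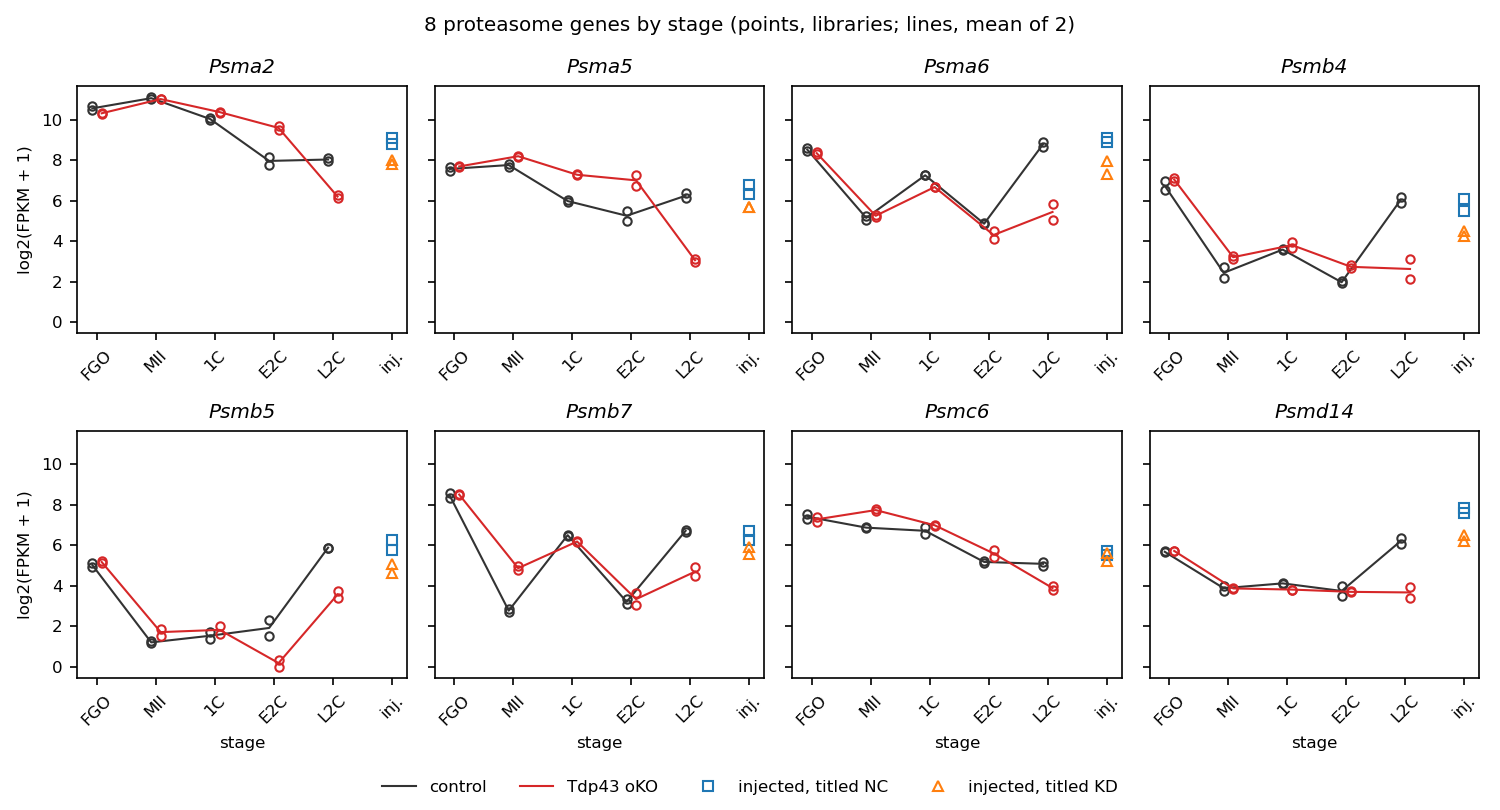
Level of 8 members as log2(FPKM + 1) by stage, with 1 point per library and a line through the mean of 2. Psma2 and Psma5 lie above control in Tdp43 oKO at E2C and below it at L2C, whereas Psma6, Psmb4 and Psmb7 end higher at L2C in control than in Tdp43 oKO.

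At L2C members were lower in Tdp43 oKO, and on the deposited scale all 43 tested had a negative fold change. Of 43 tested, 34 were called lower and none higher, where 40.6% of 7760 genes were lower and 6.75% higher. The median was -1.58 over the members and -0.79 over all genes, so the members lay 0.79 below a table that was itself shifted. Median-ratio scaling raised the median of all genes by 0.67, to -0.11, and equal totals raised it by 0.53. With these scalings 17 and 19 members were lower and none higher, and the members' medians were -0.84 and -0.996. All 17 and all 19 were among the 34. With either scaling 39 fold changes were negative and 4 positive, those of Psmg2, Psme4, Psmd2 and Psmg1, none of which passed. Over all genes the split was 524 higher and 3151 lower as deposited, and 1277 higher and 1283 lower with median-ratio scaling. With equal totals it was 1137 higher and 1648 lower.

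Psmb4 fell furthest, at 7.61 and 3.47 FPKM in Tdp43 oKO against 58.6 and 71.4 FPKM in control (-3.40 ± 0.30, adjusted p = 5.38e-08). Psma6 was at 57.0 and 31.9 FPKM against 409 and 480 FPKM (-3.35 ± 0.23). Psma5 was at 6.96 and 7.82 FPKM against 68.5 and 82.4 FPKM (-3.18 ± 0.19). After median-ratio scaling the log2 fold changes of these 3 genes were -2.62, -2.44 and -2.36, and all 3 kept their calls. The ATPase Psmc1 was at 1.58 and 3.30 FPKM against 22 and 21.6 FPKM (-2.78 ± 0.29). Psmg3 was at 0.914 and 0.971 FPKM against 11.1 and 11.6 FPKM (-2.67 ± 0.33). The deubiquitinase gene Psmd14 was at 14.4 and 9.65 FPKM against 65.2 and 81.7 FPKM (-2.53 ± 0.20). Psma3, Psma4, Psmb1, Psmc4, Psmc2 and Psmd7 were 5.34-fold to 7.89-fold lower. No library of either group overlapped the other for any of these 12 genes, which were named for their large change. Of all 7760 genes tested, 69.2% lay wholly below control and 15% wholly above, so this separation says little about the members.

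By role, 6 of 7 tested alpha genes, 7 of 7 beta genes, 6 of 6 ATPases and 8 of 8 lid genes were lower, with medians of -2.45, -2.02, -2.40 and -1.72. Of the other base genes 1 of 3 was lower (Psmd4, -2.09), of the Psmd genes outside the finished particle 1 of 3 (Psmd5), of the activators 3 of 4 and of the chaperones 1 of 4 (Psmg3). Psmd13, counted among the lid genes, and Psmg3 had means under 1 FPKM in Tdp43 oKO and were tested only through the control libraries, and 32 of the other 41 members were lower. The immune gene Psmb10 was at 2.68 and 2.25 FPKM against 7.36 and 6.15 FPKM (-1.16). Psmg2 was closest to control, at 5.28 and 7.66 FPKM against 8.37 and 5.76 FPKM (-0.11 as deposited, 0.72 with median-ratio scaling, neither of them called). Median-ratio scaling kept the calls of Psma3 to Psma6, Psmb1, Psmb4, Psmb5, Psmb7, Psmc1, Psmc2, Psmc4, Psmc5, Psmd4, Psmd7, Psmd13, Psmd14 and Psmg3. The core genes made up 0.401% and 0.334% of all FPKM in Tdp43 oKO and 0.946% and 1.05% in control. This share is relative to the library's total, as in the scaling to equal totals. The part of the oocyte and early 2-cell markers, whose sums were higher in the same Tdp43 oKO libraries, was not tested. The oocyte sum was mostly Oosp1.

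**Figure D4:**
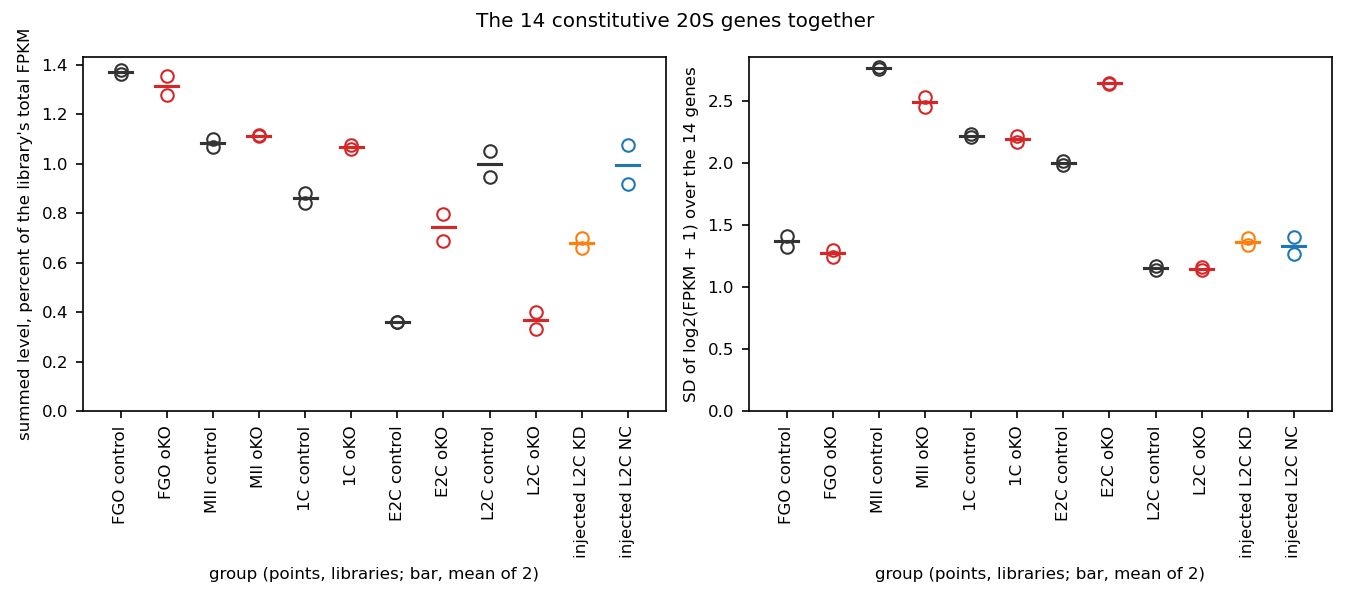
Left, summed FPKM of the 14 constitutive core genes as a percent of the library total; right, the SD of log2(FPKM + 1) over these genes (points, libraries; bars, mean of 2). The share is higher than control in Tdp43 oKO at E2C and lower at L2C, while the SD at L2C is 1.14 and 1.16 in Tdp43 oKO and 1.14 and 1.17 in control.

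The rise from E2C to L2C in control and the difference at L2C share the control L2C libraries, so they stand side by side only. Psmb4 had log2 fold changes of 4.06 and -3.40 in them, Psma6 3.93 and -3.35, Psmb6 -1.77 and -1.31, and Psmd10 -1.99 and -0.81. In Tdp43 oKO itself, 7 of 39 members rose and 12 fell from E2C to L2C, where 21.9% of 7061 genes rose and 31.3% fell. The median of the members was -0.45 as deposited, 0.13 with median-ratio scaling and 0.85 with equal totals, where 18 rose and 7 fell. Over all genes these medians were -0.26, 0.26 and 0.89, and with equal totals 3321 of 7061 genes rose and 797 fell. The sign of both medians thus depends on the scaling. Psma5 fell from 106 and 154 FPKM to 6.96 and 7.82 FPKM (-3.94 ± 0.21), Psmb2 from 679 and 1209 FPKM to 81.5 and 87.9 FPKM (-3.40 ± 0.21), and Psma2 from 831 and 722 FPKM to 76.8 and 69.5 FPKM (-3.39 ± 0.17). Psmb5 rose from 0.0127 and 0.285 FPKM to 12.3 and 9.67 FPKM (3.38 ± 0.30) and was, like Psmb10, tested only through its L2C level, and Psmd11 rose 3.79-fold. Psmb6, Psmd10, Psmg1, Psma7, Psmc5, Psmb3 and Psma1 fell between 3.65-fold and 11.3-fold.

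The effect at L2C differed from that at E2C for most members. The difference of the effects was called for 32 of 43 members, all toward lower at L2C, where 28.8% of 7836 genes were lower and 8.10% higher. The median difference was -1.64 over the members and -0.50 over all genes. With median-ratio scaling, which moves the median of all genes to 0.10, 19 members were lower and 1, Psme4, higher. Over all 7836 genes 918 were lower and 1320 higher with that scaling. The 3 genes that were higher in Tdp43 oKO at E2C, Psma5, Psma2 and Psmb2, were all lower at L2C on the deposited scale. With median-ratio scaling Psma5 kept that call, and Psma2 (-0.92) and Psmb2 (-0.51) lost it.

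In the injected embryos 11 of 44 members were lower in the libraries titled KD and 1 was higher, where 7.99% of 8100 genes were lower and 7.43% higher. The median was -0.62 over the members and -0.13 over all genes. Psmb3, a structural beta subunit, was at 24.4 and 18.9 FPKM in the libraries titled KD and at 98.5 and 54.7 FPKM in those titled NC (-1.73 ± 0.34, adjusted p = 0.00167). Psmb4 was at 18.1 and 21.5 FPKM against 67.0 and 44.1 FPKM (-1.42 ± 0.35). Psma6 was at 159 and 248 FPKM against 554 and 485 FPKM (-1.38 ± 0.27). Psmd14 was at 72.6 and 90.4 FPKM against 225 and 196 FPKM (-1.36 ± 0.23). Psmb2, Psmc5, Psmb5, Psmc1, Psmc2, Psma1 and Psma2 were 2.06-fold to 2.38-fold lower.

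These calls rested in part on single libraries and on the scale. With library 1 titled KD left out, 3 members were lower and none higher. With library 1 titled NC left out, 4 were lower and 1 higher. With equal totals 4 were lower, namely Psmb3, Psmb4, Psma6 and Psmd14, and over all genes the split went from 602 higher and 647 lower to 1071 higher and 204 lower. All 11 genes were also lower in Tdp43 oKO at L2C, which is 100% of the 11 and 32.4% of the 34 genes called there, and the comparisons share no library. Of the members tested, 79.1% were lower in Tdp43 oKO at L2C, and of all genes lower in the libraries titled KD, 84.4% were, so this overlap says little about the members. With the knockout comparison scaled by median ratio, 7 of the 11 stayed, without Psma1, Psma2, Psmb2 and Psmb3. The core genes made up 0.659% and 0.698% of all FPKM in the libraries titled KD and 1.08% and 0.917% in those titled NC. The 4 early 2-cell marker genes summed to 364 and 409 FPKM in the libraries titled KD and to 78.9 and 108 FPKM in those titled NC, and their part was not tested.

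The 1 member that was higher was the immune gene Psmb9, at 2.24 and 1.93 FPKM in the libraries titled KD and at 0.165 and 0 FPKM in those titled NC (1.51 ± 0.17, adjusted p = 1.33e-05). It reached the mean of 1 FPKM needed for the test through the libraries titled KD, so a difference was a condition of its being tested. Its neighbour Tap1, which overlaps it on the opposite strand, was at 0.0696 and 0.153 FPKM in the libraries titled KD and at 0 in those titled NC. Psmb8 was at 0.768 and 0.315 FPKM against 0 and 0 FPKM and was not tested. Psmb10 was at 13.8 and 8.90 FPKM against 12.6 and 15.0 FPKM (-0.29, and 0.05 with equal totals, not called in either). Of 8 blood and immune marker genes, 4 were at 0 in both libraries titled KD, the leukocyte gene Ptprc among them, and the list summed to 7.03 and 9.84 FPKM in the libraries titled KD and to 2.52 and 5.59 FPKM in those titled NC. The antigen-presentation gene Cd74 was at 3.13 and 4.97 FPKM against 1.15 and 0.367 FPKM. Lyz2 was also higher in the libraries titled KD, at 3.26 and 3.74 FPKM against 0.399 and 1.76 FPKM. Cd68 overlapped, at 0.640 and 1.13 FPKM against 3.92 and 0.402 FPKM. The part of such cells was not tested.

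**Figure D5:**
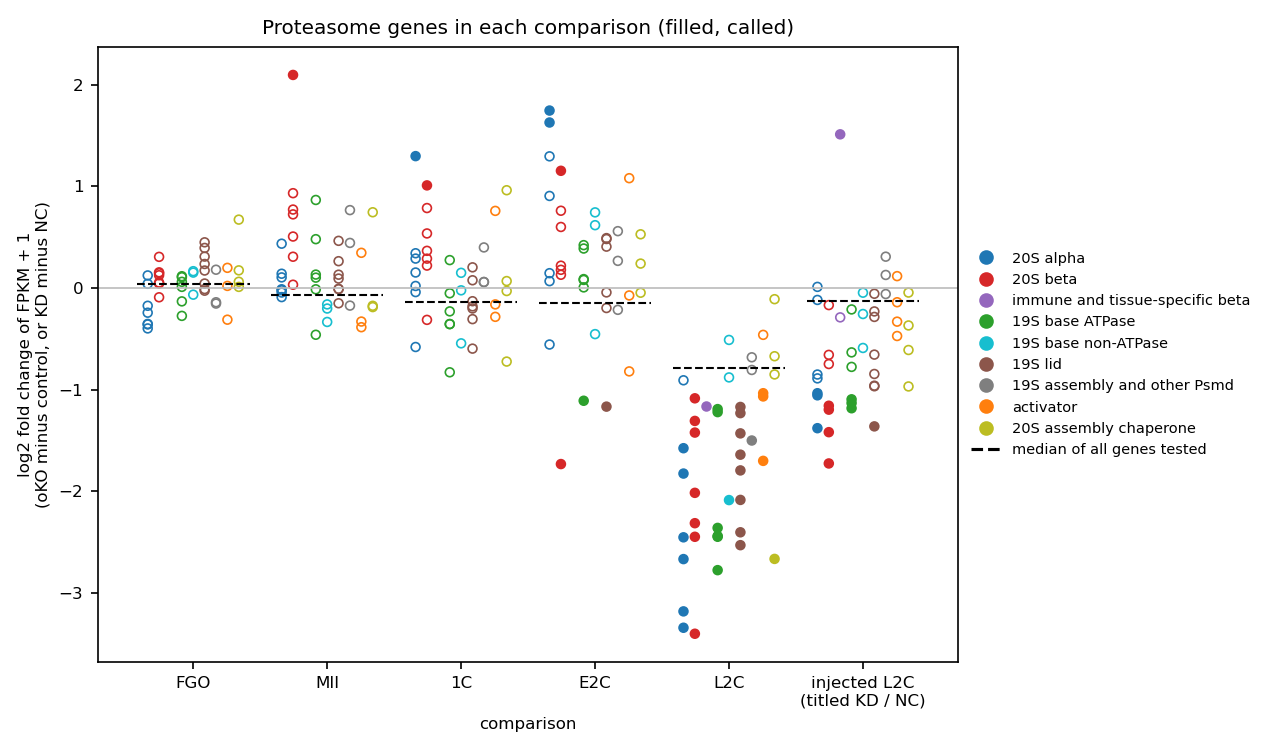
Log2 fold change of FPKM + 1 of each tested member, by role, in the 6 comparisons of TDP-43 removal (y; filled points are called, the dashed line is the median of all genes tested). Members lie around 0 at FGO, below the dashed line for the most part at L2C, and Psmb9 stands alone above 1 in the injected embryos.

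The fall in Tdp43 oKO exceeded that in the injected embryos for 19 of 43 members and was exceeded for none, where 23.5% of 8152 genes were lower by this difference and 2.94% higher. The median difference was -1.14 over the members and -0.62 over all genes. With median-ratio scaling 3 members kept the call, Psma4, Psma5 and Psma6, and Psmb3 went the other way. Over all 8152 genes 415 were lower and 673 higher with that scaling, so the members' counts lie near the background. The medians were then -0.39 over the members and -0.03 over all genes. Psma4 was at 35.8 and 25.2 FPKM in Tdp43 oKO against 148 and 194 FPKM in control, and at 119 and 136 FPKM in the libraries titled KD against 138 and 115 FPKM in those titled NC (difference -2.47 ± 0.31, adjusted p = 5.19e-05). The count depended on single libraries: it was 6 without library 2 titled KD, 9 without control L2C library 2, and 12 without control L2C library 1 or without library 2 titled NC.

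Among 28 partner genes outside the symbol rule, which cover ubiquitin, shuttling factors and assembly, 11 of 26 tested were lower in Tdp43 oKO at L2C and none higher, a share close to the 40.6% of all genes that were lower there. Pomp, the maturation factor of the core, fell most, with means of 16.7 FPKM in Tdp43 oKO and 191 FPKM in control (-3.46 ± 0.19, adjusted p = 1.1e-09). Rps27a, which encodes ubiquitin fused to a ribosomal protein, was also lower (-2.43), as was Shfm1 (-1.86). Pomp, Shfm1 and the deubiquitinase gene Usp14 were lower in the libraries titled KD (-1.48, -1.01 and -1.33), 3 of 25 tested, where 7.99% of all genes were lower. Of 10 antigen-processing genes 4 were tested at L2C, and B2m was lower in Tdp43 oKO (-1.34). In the libraries titled KD only Irf1 of 4 tested was called, and it was lower (-1.23).

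In the control transitions partner genes also went separate ways. At maturation 9 of 26 fell and 4 rose, where 27.9% of all genes fell and 7.99% rose. Rps27a fell furthest (-5.17), from a mean of 391 to 9.86 FPKM, and the inhibitor gene Psmf1 fell from 54.2 to 3.02 FPKM (-3.80). Nfe2l1, which encodes Nrf1, rose from 3.73 to 11.1 FPKM (1.34). From E2C to L2C 12 of 26 rose and 4 fell, where 39.7% of all genes rose and 22.9% fell, with Rps27a (3.76) at the top, and Psmf1 (-2.96) and Ubb (-2.47), a polyubiquitin gene, at the bottom. The share of partners that changed was not tested against all genes. None of the 26 partners tested was called between Tdp43 oKO and control at FGO, and 2 or 3 were called at each of MII, 1C and E2C.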

How the data were processed

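RNA was sequenced with Smart-seq2, and the authors trimmed reads, mapped them to mm9 with HISAT2 2.2.1 and estimated FPKM with StringTie 2.1.2. The trimming tool was Trim Galore 0.6.6 by the processing notes of the submitters and Cutadapt by the study's methods. The deposited values are FPKM per gene and library, which are not counts. Of 24085 rows, 27 with date-like names and 2 without values were left out. No column lacked a sample.

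One model over the 24 libraries (12 groups of 2, 12 residual degrees of freedom) on log2(FPKM + 1) was fitted (limma 3.58.1, R 4.3.3), with array weights shared within a collection and a robust trended variance. Adjusted p-values are over all genes tested. An exact permutation test of 2 against 2 libraries cannot go below p = 0.333. Named were, per comparison, called members up to the 12 largest (10 for differences of effects, the 2 largest where none was called), the highest member of each role, the catalytic and immune pairs, members under 1 FPKM throughout, and up to 4 called partners; further genes are named by level or as complete lists and were chosen after their values were seen. Members and lists were chosen with earlier results of these data known. The method was tested on simulated data in which only some genes were changed. A shift of most genes, as seen at L2C, was not covered by that test. The STACC-seq samples were not used here, and 1 partner gene is not reported by name.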

Additional observations from a re-analysis of the deposited data

Results flagged for a closer look

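The effect of the oocyte knockout differed between E2C and L2C, by a test of the difference itself in limma, for 32 members. The 10 largest differences of the log2 fold changes (L2C minus E2C) were those of Psma5 (-4.93), Psmb4 (-4.17), Psma2 (-3.46), Psmb1 (-3.05), Psmd7 (-2.89), Psma3 (-2.82), Psma6 (-2.79), Psmc1 (-2.78), Psme2 (-2.78) and Psmc5 (-2.75). For Psma5 and Psma2 the sign of a called effect changed between the stages on the deposited scale, and with median-ratio scaling Psma2 was not called at L2C (-0.92).

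The effect also differed between the oocyte knockout at L2C and the libraries titled KD against NC. The 10 largest differences (knockout minus KD) were those of Psma4 (-2.47), Psma5 (-2.29), Psmb4 (-1.98), Psma6 (-1.97), Psma3 (-1.82), Psmc4 (-1.82), Psmb1 (-1.79), Psmg3 (-1.70), Psmc1 (-1.65) and Psmd8 (-1.58). With median-ratio scaling only Psma4, Psma5 and Psma6 kept the call. The 2 collections differ in injection, culture and totals of FPKM, whose part was not tested.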

How the results depend on the processing

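No gene named by the rule for called members reversed under any alternative. Psmg2 at L2C (-0.11) and Psmb10 in KD against NC (-0.29), named for their levels and not called, turned positive with equal totals (0.59 and 0.05). At L2C Psme4 (0.26), Psmd2 (0.12) and Psmg1 (0.014), none of them called, turned positive with equal totals too. Over 1450 combinations of a rule-named gene and an alternative, 1363 kept the call, 86 lost it and 1 gained it. Counts of called members that moved by over 1.5 times were as follows. With median-ratio scaling they were 17 (main 34) for Tdp43 oKO at L2C, 20 (32) for L2C minus E2C and 4 (19) for knockout minus KD. With equal totals, a scaling chosen after seeing the data, they were 1 (2) at 1C, 19 at L2C, 5 (12) for KD against NC, 20 for L2C minus E2C and 9 for knockout minus KD. A pseudocount of 0.1 gave 1 (0) at FGO. Without the filter, 2 (1) were called at MII and 11 for knockout minus KD. With an adjusted p of at most 0.05 alone, 7 were called at MII and 6 at 1C. Leaving out 1 library gave 1 to 4 at MII, 1 to 4 at 1C, 3 to 6 at E2C, 3 to 17 for KD against NC and 6 to 19 for knockout minus KD. In those fits a lone library was assumed to vary like the other groups. Dropping weights, fitting only the libraries compared or requiring 5 FPKM moved no count by that much. Requiring 5 FPKM did move the background. For KD against NC, 546 of 4099 genes were then lower, with a median of -0.33, against 11 of 37 members and -0.66. For Tdp43 oKO at L2C, 1983 of 3705 genes were lower, with a median of -1.09, against 29 of 34 members and -1.81.

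Replicate numbers do not pair the libraries by the labels. Same-numbered libraries correlated between -0.23 (FGO) and 0.21 (1C) in their deviations over 8924 genes. With the number as a block, 0, 1, 2, 6, 34 and 11 members were called in the 5 knockout comparisons and KD against NC, and 14 for knockout minus KD. FPKM keeps no depth, so the precision of low levels is not known.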
